A study of Mus musculus with 14 samples.

Results

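The 83 genes described here carry names of cytosolic ribosomal proteins and were taken by name from the 37681 genes counted in mouse liver. A gene was included when its name in the deposited table was Rpl or Rps followed by a number, with at most the letter a, x, l or y and further digits after it, or was Rplp0, Rplp1, Rplp2 or Rpsa. Names with the pseudogene ending -ps were left out. By name, 42 of the 83 belong to the large subunit, 31 to the small subunit and 3 to the stalk, and 7 are paralogs, second genes for a related protein (Rpl3l, Rpl7l1, Rpl10l, Rpl22l1, Rpl39l, Rps4y2 and Rps27l). The rule uses names only, although the set was proposed with earlier results of these data known. Polyadenylated liver RNA was sequenced from 7 mice whose food was rich in fat and sucrose (HFHS, high fat and high sucrose) and from 7 mice whose food was poor in both (LFLS, low fat and low sucrose). Each mouse gave 1 library, and the sources used here give neither strain, sex, age nor length of feeding. No label states a strand-keeping kit, so reads of a gene and of an antisense or overlapping partner cannot be told apart.

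Ribosomes translate messenger RNA, and in the cytosol each is made of a large subunit, which joins amino acids, and a small subunit, which reads the messenger. The stalk, formed by Rplp0 with Rplp1 and Rplp2, recruits the translation factors. The messengers of ribosomal proteins typically begin with a C and a run of pyrimidines, the terminal oligopyrimidine (TOP) motif. Through this motif the kinase mTOR and the RNA-binding protein LARP1 set their translation and stability together. Mammalian genomes also hold many processed pseudogenes of these genes, copied back into DNA from the messenger.

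The start of each gene is shown first because the TOP motif is typical of these messengers. Of the 83 genes, 61 matched a start window in RefSeq (build GRCm38.p6). The letters CTTTC occurred within 50 bases of the annotated start on the sense strand in 30 of the 61 genes, or 49.2%, against 12.6% of 27025 mouse gene starts. On the opposite strand they occurred in 11.5% of the genes and 11.8% of all starts. The letters CCGGAAG, a form of the site bound by ETS factors, occurred on either strand of the window of 250 bases before to 50 bases after the start in 39.3% of the genes and 9.12% of all starts. No overlap between the motifs was counted. Windows of 30 bases follow for Rpl13a, which was called lower on HFHS, for Rpl18, Rpl28 and Rps10, which lay lower without being called, for Rplp2 of the stalk and for Rpl15, which lay slightly higher, with CTTTC in capitals and the gene's own strand shown.
Rpl13a (chr7:45128719-45128748, minus strand): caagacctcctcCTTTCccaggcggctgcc
Rpl18 (chr7:45718062-45718091, plus strand): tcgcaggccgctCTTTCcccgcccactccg
Rpl28 (chr7:4792955-4792984, plus strand): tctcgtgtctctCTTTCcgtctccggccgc
Rps10 (chr17:27635223-27635252, minus strand): gcacgccccttcCTTTCcagcctccgcctc
Rplp2 (chr7:141447639-141447668, plus strand): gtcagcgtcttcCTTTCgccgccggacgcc
Rpl15 (chr14:18270965-18270994, minus strand): aaagccttcttcCTTTCctctggcggcagc
The 29 tested genes with CTTTC near the start had a median log2 change between diets, HFHS over LFLS, of -0.27, and the 30 tested genes without it had -0.25. Rps16, Rpl10a and Rps9 had no CTTTC in this window, and Rpl32 matched no start. A match is a description of letters and not of a working site. CTTTC was sought anywhere in its window, also before the start, and is not the TOP motif itself. Genes without it were therefore not shown to lack a TOP motif.

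Short reads of these genes can be ambiguous, which bears on every value below. The reads were 50 bases long, and each coding sequence was cut into all its stretches of 50 bases and searched on both strands in the annotated mouse transcripts (GENCODE M21, build GRCm38). Of the 81 genes that could be searched, 78 shared at least 1 stretch with another annotated gene, and 27 had no stretch of their own. The median gene had 9.74% of its stretches to itself, and 15 genes had at least 50%. For 2 heavily copied genes and the called genes Rps16 and Rps9 the most widely shared stretch follows. All are printed in capitals, since the whole stretch was matched.
Rpl7a, coding bases 429 to 478, also in 45 other genes: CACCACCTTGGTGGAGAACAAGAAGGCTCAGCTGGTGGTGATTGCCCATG
Rpl21, coding bases 96 to 145, also in 44 other genes: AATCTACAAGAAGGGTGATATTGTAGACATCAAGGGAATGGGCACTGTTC
Rps16, coding bases 229 to 278, also in 3 other genes: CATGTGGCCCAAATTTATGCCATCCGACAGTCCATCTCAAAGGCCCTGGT
Rps9, coding bases 210 to 259, also in 1 other gene: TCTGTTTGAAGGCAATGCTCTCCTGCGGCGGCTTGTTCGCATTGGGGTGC
Over its whole coding sequence Rpl7a shared stretches with 123 genes, 120 of them annotated as pseudogenes, and Rpl21 with 82 genes, 81 of them pseudogenes. Only exact copies in annotated transcripts were counted, which understates the sharing of coding sequence. Untranslated parts of these genes were not searched, so the sharing of whole messengers is not known. The sources used here do not say how reads matching several places were counted.

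For 3 identifiers the deposited name differs from the later annotation. Rps3a is Rps3a1 there, the same gene under a newer symbol. The identifier named Rpl24 in the deposited table (ENSMUSG00000022601) belongs to Zbtb11 in GENCODE M21, and the identifier named Rps4y2 (ENSMUSG00000063171) is Rps4l, a transcribed processed pseudogene. Both of these are counted among the 83 genes by their deposited names, with values of the identifiers, and neither entered the sequence searches.

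The libraries held 18.2 to 45.4 M counts on HFHS and 18.3 to 52.8 M on LFLS. Liver identity was plain, since 6 hepatocyte markers summed to 55968 to 100551 CPM (counts scaled to a common library total by the TMM method) on HFHS and 71855 to 114370 CPM on LFLS. Sample titles begin with a 1 in replicates 1 to 4 of each diet and with a 2 in replicates 5 to 7, and the labels do not say what this number marks. Library LFLS 1 stood apart. Its GC-rich genes were raised over its GC-poor genes by 1.08 on the log2 scale, against -0.48 to 0.51 in the other LFLS libraries and -0.43 to 0.03 on HFHS, and mitochondrially encoded transcripts took 1.39% of its counts, against 4.24 to 5.10% on HFHS. LFLS 2 to 4 lay on the same side of the HFHS libraries, with GC contrasts of 0.23 to 0.51 and mitochondrially encoded shares of 2.49 to 3.77%. Of 36 tested mitochondrially encoded genes 0 were called and 33 lay above 0, with a median log2 change of 0.36 on HFHS over LFLS, 0.89 in title number 1 and -0.03 in number 2. The part of these differences in the results was not tested. Values that move by more than 1.5 times without LFLS 1 are given with and without it for the genes described. Summed exocrine pancreas markers reached 413 CPM on HFHS and 1526 CPM on LFLS. In whole liver, fewer cells of a type and less RNA per cell cannot be told apart.

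Levels differed widely between genes whose proteins enter the ribosome in nearly equal numbers. On the scale of CPM per kilobase of a representative transcript, averaged over the 14 libraries, the subunit and stalk genes ran from 0.592 for Rps23 to 182 for Rpl8. Rpl8 sits at the peptidyl transferase centre. Among other high genes were Rps9 at 169, Rpl4 at 159, Rpl22 at 139 and Rplp1 at 139. Toward the low end, Rpl7a had 1.66, Rpsa 1.67 and Rpl21 1.70 CPM per kilobase. Among subunit and stalk genes, levels were higher in classes with more unique coding sequence, while over all 81 searched genes, paralogs included, the correlation of log2 level with the unique percentage was 0.16. The 27 genes with no stretch of their own had a median level of 7.51 CPM per kilobase and reached 60.4 in Rpl38. The 38 genes with some but under 50% unique stretches had a median of 11.8, and the 10 genes with at least 50% had a median of 112, from 14.6 in Rpl32 to 182 in Rpl8. The part of read assignment in these levels was not tested.

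**Figure D1:**
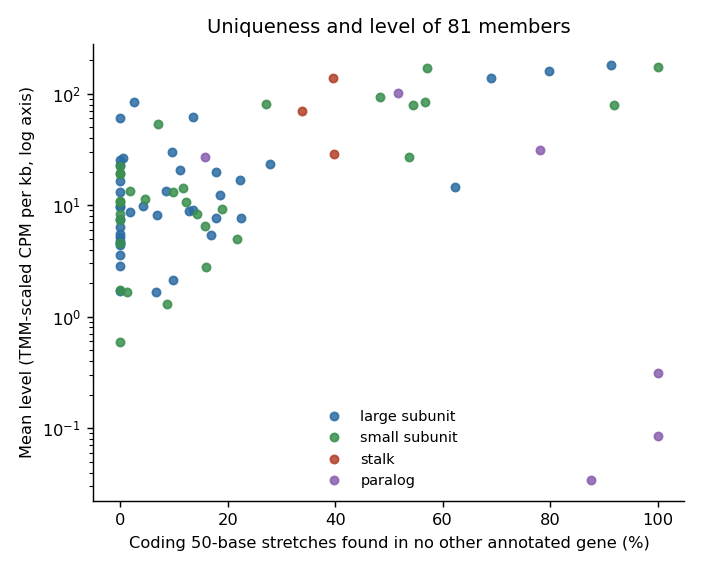
Level of each of the 81 genes that could be searched (mean over 14 libraries, CPM per kilobase of transcript, log axis) against the percentage of its coding 50-base stretches found in no other annotated gene, coloured by subunit. The 10 subunit genes with at least 50% unique stretches lie at 14.6 or above, while genes at 0% run down to 0.592, and the 3 low points at the right are the paralogs Rpl3l, Rpl39l and Rpl10l.

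The ribosomal protein genes as a whole took a smaller share of liver counts on HFHS than on LFLS. The summed share of the 83 genes was lowest in HFHS 5 at 0.158% (95% Wilson interval 0.157 to 0.160%, counting error only) and reached 0.209% in HFHS 3, with a mean of 0.187% ± 0.0176 (SD, n = 7). On LFLS it ran from 0.202% in LFLS 7 to 0.286% in LFLS 1 (0.285 to 0.288%), with a mean of 0.224% ± 0.0286 (SD, n = 7). Only HFHS 3 and HFHS 4 overlapped the LFLS range. The difference was -0.0366 percentage points, and -0.0261 without LFLS 1. Among libraries with title number 1 it was -0.0347 and among those with number 2 -0.0392 percentage points. These are descriptions with no test, because the genes were chosen with earlier results of these data known.

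**Figure D2:**
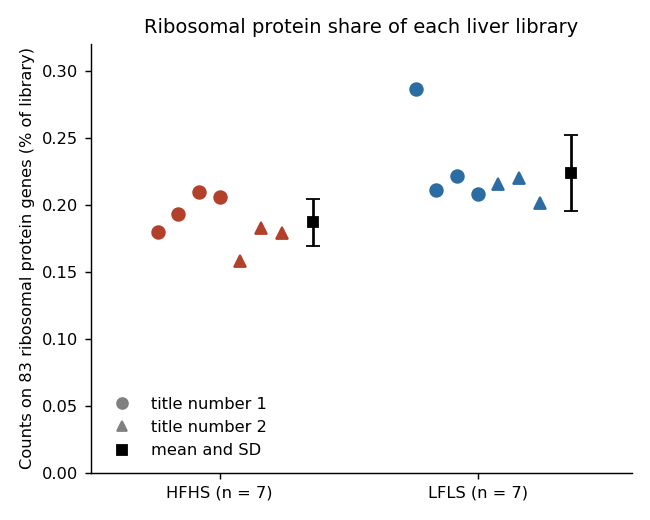
Share of each library's counts on the 83 ribosomal protein genes, with HFHS libraries on the left and LFLS libraries on the right. Circles have title number 1, triangles number 2, and black squares with bars are means and SD (n = 7), at 0.187% for HFHS and 0.224% for LFLS, where LFLS 1 stands highest at 0.286%.

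Gene by gene, the change was small and mostly in one direction. Of the 83 genes, 81 were expressed highly enough to be tested, and Rpl10l and Rpl39l, paralogs known from the testis, were not. In the quasi-likelihood F test of edgeR, with p-values adjusted over all 17223 tested genes by the Benjamini-Hochberg method, 5 of the 81 were called lower on HFHS at an adjusted p under 0.05, 0 were called higher and 76 were not called. Over all tested genes 1.44% were called lower, 1.37% higher and 2.81% either way. The log2 change lay below 0 in 69 of the 81 genes, or 85.2%, against 51.3% of all tested genes. Its median was -0.27, against -0.01 over all tested genes, and single genes ran from -0.97 to 0.55. At an unadjusted p under 0.05 there were 33 lower genes and 1 higher gene, where 10.8% of all genes were lower and 8.81% higher. In 10 genes the HFHS libraries all lay below the LFLS libraries, which held for 0.795% of all genes, and in 0 genes they all lay above, against 0.854%. In 32 of the 81 genes all 7 HFHS libraries lay below the LFLS median, against 15.2% of all genes. Without LFLS 1, 71 of 81 genes lay below 0 and 11 were called lower and 0 higher, where 2.15% and 1.76% of all genes were.

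The number of calls moved with the method. DESeq2 called 15 of the 81 genes lower and 0 higher, where it called 4.15% and 3.15% of all genes. limma voom with quality weights called 13 lower and 2 higher, beside 9.05% and 9.96% of all genes, with a median log2 change of -0.14. With the number that begins each title as a term, edgeR called 15 lower and 0 higher, beside 4.56% and 4.38% of all genes. With offsets for GC content and length as well, it called 13 lower and 0 higher, beside 4.08% and 2.89%. Scaled by library totals alone, 2 were called lower and 0 higher, beside 0.883% and 2.2% of all genes. The medians of these fits other than voom lay between -0.27 and -0.22.

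**Figure D3:**
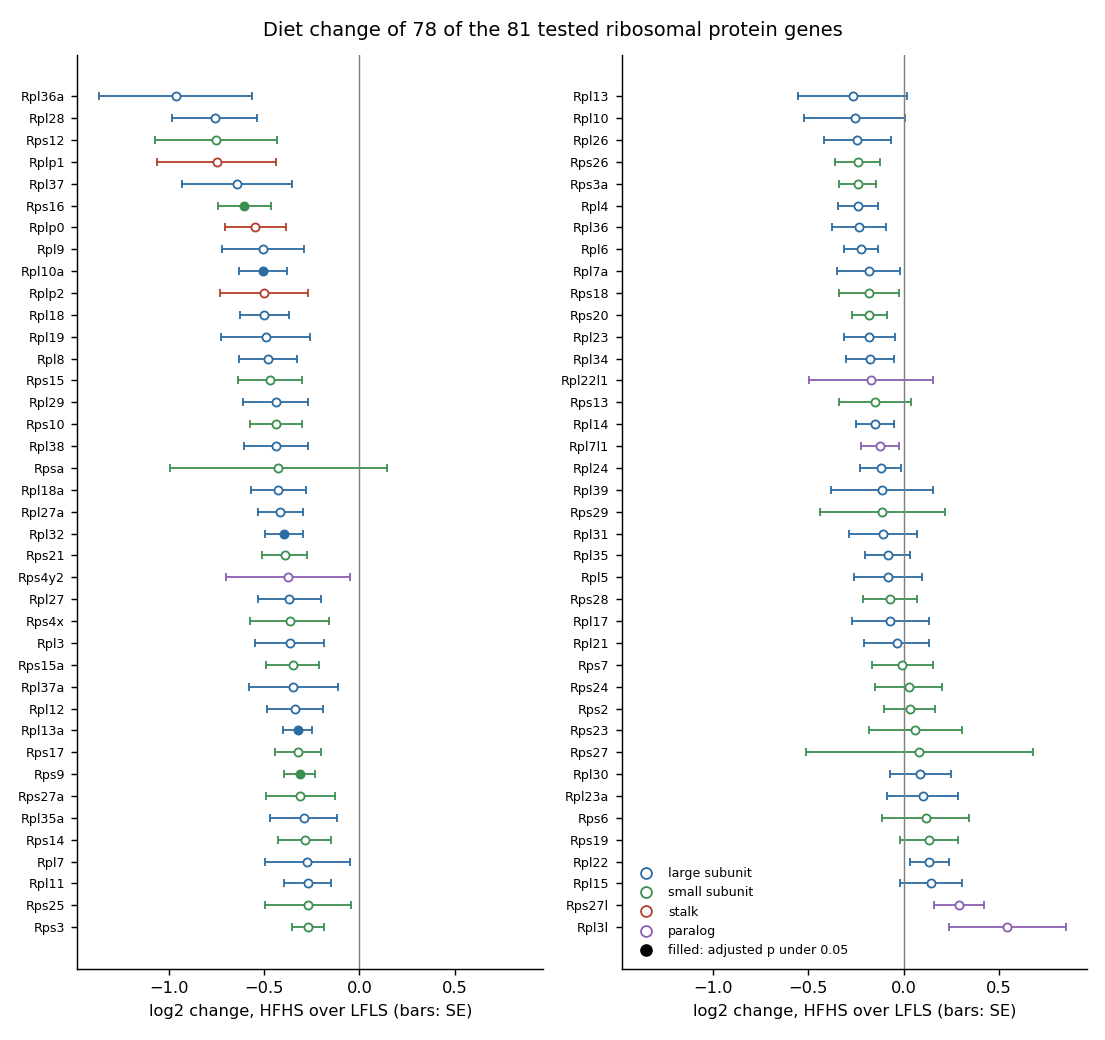
Log2 change between diets (HFHS over LFLS) of 78 of the 81 tested ribosomal protein genes with standard errors as bars, ordered from the lowest to the highest and coloured by subunit. Filled points mark the 5 genes called lower, 66 points lie left of the line at 0, and the 3 stalk genes all lie among the lower values.

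Among the large subunit genes 3 of 42 fell, 0 rose and 39 were not called, with a median log2 change of -0.27. Rpl13a (ENSMUSG00000074129, chr7:45125558-45128761 in GRCm38) encodes a large subunit protein that in human cells also joins a complex silencing inflammatory messengers. Its lowest, median and highest values were 68.1, 79.0 and 84.6 CPM on HFHS, against 88.1, 96.2 and 107 CPM on LFLS. The diets did not overlap, and the 3 LFLS libraries with title number 2 were the highest. Rpl13a fell by 0.33 ± 0.08 on the log2 scale (SE), with a Benjamini-Hochberg adjusted p of 0.0374 in edgeR's quasi-likelihood test.

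Rpl10a (ENSMUSG00000037805, chr17:28328471-28331033) encodes the protein of the mobile stalk beside the exit of spent transfer RNA. It had 12.3, 15.5 and 19.4 CPM on HFHS, against 17.8, 22.1 and 28.8 CPM on LFLS as lowest, median and highest values. HFHS 3 and HFHS 6 lay above the lowest LFLS library, LFLS 2, and below all others. The decrease was -0.51 ± 0.13 (log2, SE; edgeR quasi-likelihood, Benjamini-Hochberg adjusted p 0.0437). Rpl32 (ENSMUSG00000057841, chr6:115805505-115808747), a large subunit protein often used as a control transcript, had 5.58, 6.31 and 7.70 CPM on HFHS, against 7.82, 8.31 and 10.7 CPM on LFLS. The diets touched without overlapping, and LFLS 6 lay well above the other LFLS libraries. Its change was -0.40 ± 0.10 (log2, SE; edgeR quasi-likelihood, Benjamini-Hochberg adjusted p 0.0474).

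Of the small subunit genes 2 of 31 fell, 0 rose and 29 were not called, again with a median log2 change of -0.27. Rps16 (ENSMUSG00000037563, chr7:28350652-28353155), whose tail reaches the transfer RNA in the decoding site, had 12.4, 16.7 and 19.2 CPM on HFHS, against 20.8, 23.1 and 39.1 CPM on LFLS. All HFHS libraries lay below all LFLS libraries, and LFLS 1 stood far above the rest. The decrease was -0.61 ± 0.14 (log2, SE; edgeR quasi-likelihood, Benjamini-Hochberg adjusted p 0.0326), and -0.47 ± 0.09 without LFLS 1 (adjusted p 0.0182). Rps9 (ENSMUSG00000006333, chr7:3703993-3706897), which lines the entry of the messenger, had 101, 109 and 126 CPM on HFHS, against 129, 139 and 163 CPM on LFLS. The diets did not overlap, and LFLS 1 was again the highest library. Its change was -0.31 ± 0.08 (log2, SE; edgeR quasi-likelihood, Benjamini-Hochberg adjusted p 0.0499).

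These calls lay close to the threshold. Rps16 lost its call without LFLS 7 or without HFHS 1, 2, 5, 6 or 7, where its Benjamini-Hochberg adjusted p in edgeR reached 0.0807. Rpl32 and Rps9 lost theirs without any 1 library other than LFLS 1 (up to 0.128 and 0.134). Rpl13a kept its call only without LFLS 1 or LFLS 4 (up to 0.129) and Rpl10a only without LFLS 2 or HFHS 3 (up to 0.120). Offsets for GC content and length, fitted per library, ended the calls of Rpl13a (adjusted p 0.136) and Rpl32 (0.0619). Scaling by library totals ended those of Rpl10a, Rpl32 and Rps9, and testing without a filter on low counts ended all 5. Over these exclusions of 1 library the log2 change of Rps16 ran from -0.65 to -0.47, that of Rpl10a from -0.56 to -0.44 and that of Rpl32 from -0.44 to -0.33. Rpl13a ran from -0.35 to -0.28 and Rps9 from -0.34 to -0.28.

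**Figure D4:**
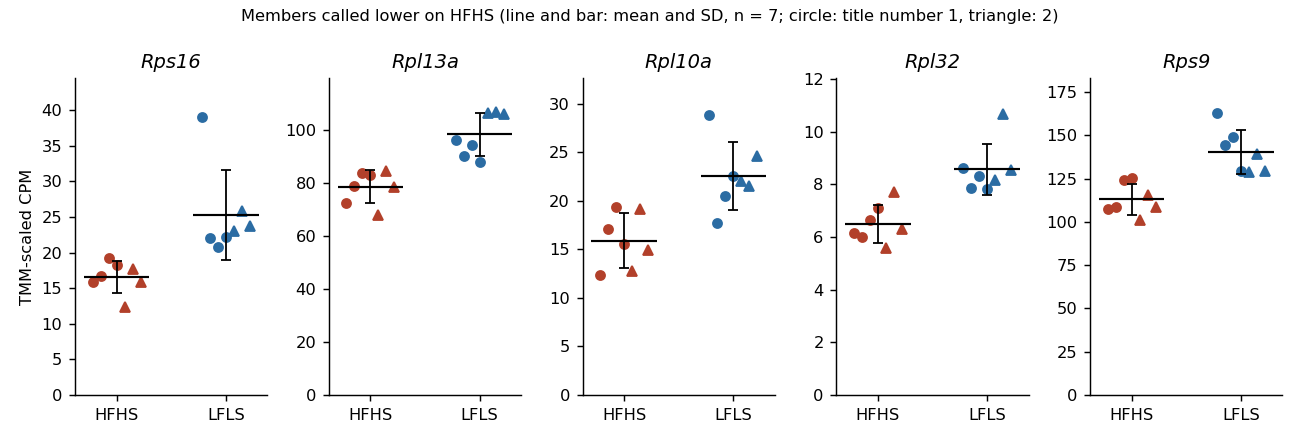
TMM-scaled CPM of the 5 genes called lower, HFHS libraries on the left of each panel and LFLS libraries on the right, with circles for title number 1 and triangles for number 2. Lines and bars are means and SD (n = 7), and in 4 of the 5 panels, all but Rpl10a, no HFHS library reaches the lowest LFLS library.

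Clean separation of the diets did not always come with a call. Rpl18, a large subunit protein, had 11.6, 17.9 and 19.0 CPM on HFHS, against 20.3, 22.1 and 34.0 CPM on LFLS, without overlap, and differed by -0.50 ± 0.13 (log2, SE; edgeR quasi-likelihood, Benjamini-Hochberg adjusted p 0.0514). Without LFLS 1 it was called, at an adjusted p of 0.0451 in the same test. It was named after its values were seen.

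Outside the calls and the stalk, Rpl36a, Rpl28, Rps12 and Rpl37 had the lowest log2 changes. Rpl36a, a large subunit protein near the exit site, had 0.930, 1.32 and 2.85 CPM on HFHS, against 0.907, 3.36 and 5.92 CPM on LFLS. Its LFLS libraries split, with LFLS 2 to 4 at or among the HFHS values and LFLS 1 and 5 to 7 above them. The difference was -0.97 ± 0.40 (log2, SE; edgeR quasi-likelihood, Benjamini-Hochberg adjusted p 0.200), and all of its coding stretches were shared. Rpl28 had 3.05, 3.55 and 4.33 CPM on HFHS, against 4.36, 5.24 and 13.1 CPM on LFLS, with no overlap and LFLS 1 far above the others. Its difference of -0.76 ± 0.22 (adjusted p 0.0784) became -0.46 ± 0.11 without LFLS 1, where it was called (0.0341). Rps12 differed by -0.75 ± 0.32 (adjusted p 0.206), with LFLS 6 at 12.2 CPM and the other 6 LFLS libraries between 2.22 and 4.87 CPM. Rpl37 differed by -0.64 ± 0.29 (adjusted p 0.232), and by -0.23 ± 0.15 without LFLS 1.

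Of Rpl4, Rpl8, Rps3 and Rps9, among the most abundant genes by mean CPM, the first 3 had at least 79.7% unique stretches and Rps9 57.0%. Rpl8 had 112, 126 and 145 CPM on HFHS, against 147, 157 and 307 CPM on LFLS. The diets did not overlap, and LFLS 1 held the value of 307 CPM. The difference was -0.48 ± 0.15 (log2, SE; edgeR quasi-likelihood, Benjamini-Hochberg adjusted p 0.0949), and -0.30 ± 0.08 without LFLS 1, where it was called (0.0443). Rps3, at the entry of the messenger, had 113, 137 and 157 CPM on HFHS, against 154, 167 and 178 CPM on LFLS. HFHS 3 alone reached into the LFLS range, and the difference was -0.27 ± 0.09 (adjusted p 0.0965). Rpl4, which lines the exit tunnel of the new protein, had 196, 226 and 247 CPM on HFHS, against 202, 258 and 324 CPM on LFLS. LFLS 1 was the lowest LFLS library of Rpl4, opposite to its place in Rpl8, and the difference was -0.24 ± 0.10 (adjusted p 0.217).

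The 3 stalk genes had the lowest median of the groups, at -0.55, with 0 of 3 called, and this leaned on 1 library. Rplp1, which forms dimers with Rplp2 on the stalk, had 41.9, 52.3 and 62.6 CPM on HFHS, against 51.8, 60.7 and 246 CPM on LFLS. The LFLS value of 246 CPM was LFLS 1, and the next was 67.8 CPM, so apart from it the diets overlapped. The difference was -0.75 ± 0.31 (log2, SE; edgeR quasi-likelihood, Benjamini-Hochberg adjusted p 0.199), and -0.22 ± 0.10 without LFLS 1 (adjusted p 0.228). Rplp2 differed by -0.50 ± 0.23 (adjusted p 0.240), and by -0.17 ± 0.09 without LFLS 1 (0.317). Rplp0, the base of the stalk, had 27.2, 30.9 and 38.9 CPM on HFHS, against 36.7, 40.7 and 80.9 CPM on LFLS, where only HFHS 4 lay within the LFLS range. Its difference was -0.55 ± 0.16 (adjusted p 0.0758), and -0.36 ± 0.09 without LFLS 1, where it was called (0.0343). Without LFLS 1 the stalk median was -0.22, beside -0.25 for the large and -0.25 for the small subunit.

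Genes on the other side of 0 were few, and none of them was called in the reported edgeR fit. limma voom with quality weights called 2 of them higher, Rps27l (0.39, adjusted p 0.0143) and Rpl3l (0.95, adjusted p 0.0473). Rps27l, a paralog of Rps27 induced by p53 in human cells, had 46.8, 57.7 and 66.0 CPM on HFHS, against 32.1, 40.6 and 59.4 CPM on LFLS. The diets overlapped, with LFLS 5 to 7 among the HFHS values. Rps27l differed by 0.29 ± 0.13 (log2, SE; edgeR quasi-likelihood, Benjamini-Hochberg adjusted p 0.232). Above it lay only Rpl3l at 0.55 ± 0.31, which averaged under 1 CPM. Next below came Rpl15 (0.14 ± 0.16), Rpl22 (0.14 ± 0.10), Rps19 (0.13 ± 0.15), Rps6 (0.12 ± 0.23) and Rpl23a (0.10 ± 0.19), with adjusted p values of 0.479 to 0.811. Without LFLS 1 these were 0.06 for Rpl15, 0.08 for Rpl22, 0.10 for Rps19, -0.02 for Rps6 and 0.04 for Rpl23a. Rps6, the protein phosphorylated by the S6 kinases, had all of its coding stretches shared and a level of 1.81 CPM per kilobase on HFHS and 1.68 on LFLS.

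Paralogs and their partners differed in level more than between diets. They also differed in unique coding stretches, with 51.7% in Rps27l and 0% in Rps27, 100% in Rpl3l and 4.31% in Rpl3. The part of this in their levels was not tested. Of the 7 paralogs 5 were tested, with 0 called and a median log2 change of -0.12. Rpl3l, which replaces Rpl3 in striated muscle, had a level of 0.370 CPM per kilobase on HFHS and 0.252 on LFLS, against 8.67 and 11.2 for Rpl3. Rpl3l differed by 0.55 ± 0.31 (log2, SE; edgeR quasi-likelihood, Benjamini-Hochberg adjusted p 0.341) and Rpl3 by -0.37 ± 0.18 (adjusted p 0.280). Rps27l stood at 112 CPM per kilobase on HFHS and 91.6 on LFLS, against 10.9 and 10.3 for Rps27, which has no unique stretch and varied from 0.866 to 10.1 CPM on HFHS and from 1.12 to 12.3 CPM on LFLS. Rpl22l1, whose messenger Rpl22 represses in the mouse, differed by -0.17 ± 0.32 (adjusted p 0.806), with LFLS 1 at 2.88 CPM and LFLS 5 to 7 at 20.5 to 25.4 CPM, and by -0.36 ± 0.20 without LFLS 1. Rpl7l1, a nucleolar relative of Rpl7, differed by -0.12 ± 0.10 (adjusted p 0.527) and Rpl7 by -0.27 ± 0.22 (0.519). Rpl10 differed by -0.26 ± 0.26, Rpl39 by -0.11 ± 0.27, Rps4x by -0.37 ± 0.21 and the identifier named Rps4y2 by -0.38 ± 0.33, none of them called. The Rps4y2 value rested on LFLS 1 at 19.2 CPM and was -0.06 ± 0.28 without it, and Rpl39 was at -0.27 ± 0.20. The paralogs Rpl10l and Rpl39l had at most 0.0547 and 0.109 CPM on HFHS and 0.0533 and 0.107 CPM on LFLS, close to the lowest count of the table, which is 1. The identifier named Rpl24 had 35.3, 49.1 and 50.2 CPM on HFHS, against 36.1, 51.9 and 58.8 CPM on LFLS, a difference of -0.12 ± 0.11, not called.

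The lower values on HFHS were larger among the libraries whose titles begin with 2. With title number 1 (4 mice per diet) the median log2 change of the 81 genes was -0.14 and 49 lay below 0, and with number 2 (3 mice per diet) the median was -0.39 and 79 lay below 0. The medians of all tested genes were 0.01 and 0.01. All 49 genes below 0 in number 1 were also below 0 in number 2, 30 changed side, and only Rps27l and Rps23 lay above 0 in both. Within number 1, 0 genes were called lower, against 3.19% of all genes, and 1 was called higher, against 5.3%. The higher one was Rps27l, at 0.53 (edgeR quasi-likelihood, Benjamini-Hochberg adjusted p 0.0356), and within number 2 it differed by 0.06. Within number 2, Rpl36a (-1.52, adjusted p 0.0404) and Rps4x (-0.53, adjusted p 0.0474) were called lower, against 0.794% of all genes, and 0 were called higher, against 0.788%. Tested as an interaction of diet and title number, 0 of 81 genes passed the Benjamini-Hochberg adjusted edgeR test where 0.883% of all genes did, and 15 had an unadjusted p under 0.05, against 22.6% of all genes. The 5 genes called in the pooled test were below 0 in both numbers, with Rps16 at -0.55 and -0.65, Rpl10a at -0.46 and -0.53, Rpl13a at -0.20 and -0.46, Rpl32 at -0.32 and -0.46 and Rps9 at -0.31 and -0.28, and none was called within either number.

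**Figure D5:**
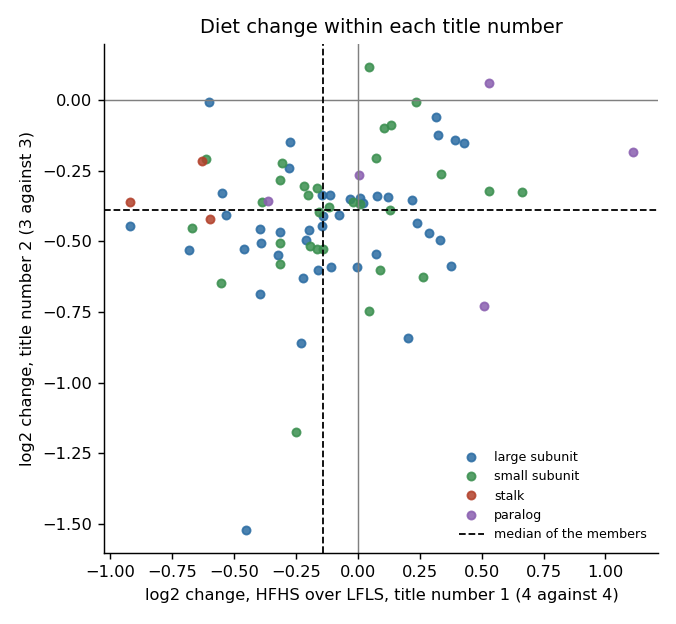
Log2 change between diets (HFHS over LFLS) of each tested ribosomal protein gene among libraries with title number 1 (x axis, 4 against 4) and number 2 (y axis, 3 against 3), coloured by subunit, with dashed lines at the medians of -0.14 and -0.39. Of 81 points 49 lie below 0 on both axes and 30 lie right of 0 but below it, and the diet difference between numbers was called for 0 genes.

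Within a diet the genes moved together only in part. After the diet means were removed, the median correlation between pairs of the 81 genes over the 14 libraries was 0.23, and the first component held 30.2% of their variation. The change of a gene went weakly with the GC content of its coding sequence, with a correlation of -0.26 across 79 genes, which share the same libraries and are not independent. Over 16351 genes the correlation with the GC content of the longest transcript was -0.31. The 40 tested genes at or above the median coding GC had a median log2 change of -0.34, with 4 called lower, and the 39 below it had -0.18, with 1 called. With the GC and length offsets the correlation across the 79 genes was -0.01, the median change of all 81 was -0.26, and 6 were called lower (Rpl8, Rpl10a, Rpl27a, Rplp0, Rps9 and Rps16), against 2.2% of all genes, and 0 higher, against 1.53%.

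Over both title numbers together, the median change was of like size in genes with much and with little shared sequence. The 13 tested genes with at least 50% unique stretches had a median log2 change of -0.27 with 2 called lower, Rpl32 and Rps9, and the 66 with less had -0.26 with 3 called. The 27 genes with no unique stretch had -0.27, with Rps16 called. Within the title numbers the medians were less alike. In number 1 they were -0.20 for genes with at least 50% unique stretches and 0.04 for the 27 with none. In number 2 they were -0.33 and -0.47. Pseudogenes carrying names of these genes numbered 171 in the table, of which 63 stood at the lowest count in all libraries and 25 were tested. They took 0.0245% ± 0.00201 of the counts on HFHS and 0.0296% ± 0.00569 on LFLS (SD, n = 7), with 1 of 25 called lower and a median log2 change of -0.19. LFLS 1 was again the highest library, at 0.0419%.

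Other messengers of the TOP class, and genes that serve the ribosome, were read from the same fit. Of 23 TOP genes outside the rule 2 fell, 0 rose and 21 were not called, with a median log2 change of -0.22 and 19 below 0. Eef1b2, which recharges elongation factor 1 with GTP, had 88.8 to 110 CPM on HFHS, against 112 to 141 CPM on LFLS, and fell by 0.36 ± 0.08 (log2, SE; edgeR quasi-likelihood, Benjamini-Hochberg adjusted p 0.0294). Pabpc1, the poly(A)-binding protein, had 140 to 175 CPM on HFHS, against 176 to 225 CPM on LFLS, and fell by 0.33 ± 0.08 (adjusted p 0.0445). Gnb2l1, the small subunit protein also known as Rack1, had 145 to 196 CPM on HFHS, against 199 to 360 CPM on LFLS, and differed by -0.48 ± 0.13 (adjusted p 0.0561). These 3 genes were picked for the smallest p of the list, and none of them overlapped between diets. Over all tested genes 0.795% lay wholly lower on HFHS, and overlap was not counted for the 23 as a set. In the list of mTOR, LARP1 and S6 kinase genes 1 of 22 fell, Larp1, with 103 to 132 CPM on HFHS, against 130 to 176 CPM on LFLS, a change of -0.42 ± 0.09 (adjusted p 0.0222), and the list's median was -0.05. Tsc1, a brake on mTOR, differed by -0.25 ± 0.11 (0.228). The Eef1b2 and Pabpc1 calls were not kept within either title number alone. Larp1 fell in number 1 (-0.60, adjusted p 0.016) and differed by -0.14 in number 2 (0.421). Of its list of 22 genes, 2 were called lower and 1 higher within number 1, beside 3.19% and 5.3% of all genes. In number 2, 0 of the list were called lower and 0 higher, beside 0.794% and 0.788%. Of the 23 TOP genes, 2 were called higher and 0 lower within number 1, beside 5.3% and 3.19% of all genes. Within number 2, 1 was called lower and 0 higher, beside 0.794% and 0.788%. With the title number as a term, 2 were called higher and 5 lower, beside 4.38% and 4.56%.

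None of the lists below held a called gene in the pooled test. Ribosome biogenesis factors had 0 of 32 called and a median of -0.10, with Tsr1, which matures the small subunit, at 0.24 ± 0.07 (log2, SE; edgeR quasi-likelihood, Benjamini-Hochberg adjusted p 0.0678) and Rrs1, of the large subunit pathway, at -0.34 ± 0.10 (0.0867). RNA polymerase I and its factors had 0 of 14 called and a median of -0.13, with the smallest p in Polr1c, at -0.40 ± 0.12 (adjusted p 0.0809). In that list Myc, a driver of ribosome production, had 2.25 to 7.62 CPM on HFHS, against 3.09 to 50.0 CPM on LFLS. Its LFLS values were widely spread, with a mean of 13.6 ± 16.6 CPM, against 4.69 ± 2.30 CPM on HFHS (SD, n = 7). The difference was -1.53 ± 0.57 (adjusted p 0.153), and -1.14 with the title number as a term. Translation initiation and elongation factors had 0 of 31 called and a median of -0.12, with Eif1 at -0.26 ± 0.08 (0.0825) and Eif3b at -0.28 ± 0.08 (0.0837), and kinases whose names begin with Rps6k had 0 of 7 and -0.01. Mitochondrial ribosomal proteins, which build a separate ribosome, had 0 of 76 called, a median of 0.03 and 30 of 76 below 0. Within title number 1, 3 of these 76 genes were called higher, and 2 biogenesis factors higher and 1 lower. There 1 translation factor was called lower, where 3.19% of all genes were lower and 5.3% higher. Within number 2, 1 kinase of the Rps6k list was called higher, beside 0.788% of all genes. Lists of hepatocyte, B and plasma cell, T cell, macrophage, erythroid, exocrine pancreas and cycling cell markers had 0 genes called. The 6 hepatocyte markers had a median of -0.50 with 5 below 0, lower than that of the ribosomal protein genes, with Apoa1 at -0.54 ± 0.17 (adjusted p 0.0892) and Fgb at -0.75 ± 0.25 (0.109). Within title number 2, 2 of them were called lower, beside 0.794% of all genes, and 1 cycling cell marker was called higher, beside 0.788%. The other markers include Mki67 of cycling cells at 1.07 ± 0.31 (adjusted p 0.0703). The list medians ran from -1.14 for exocrine pancreas to 0.75 for cycling cells, and their part in the ribosomal protein values was not tested.

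The authors' deposited table names its groups A and B only, and its group A means lay within 0.0319% (median over genes) of the LFLS means and 9.53% from the HFHS means. Of the 83 genes, 74 in the authors' deposited table had a log2 fold change below 0, and 0 had an adjusted p under 0.05. In the authors' deposited table every adjusted p of these genes was 1, and 3 had an unadjusted p under 0.05, all lower, namely Rpl10a, Rps16 and Rpl18.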

How the data were processed

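Polyadenylated RNA of 14 livers was read as single 50-base reads, per the labels' protocols. The deposited counts per Ensembl gene are whole numbers with a lowest value of 1 and were not normalised by the authors. The submitters' processing notes name CASAVA 1.8, TopHat, Bowtie, DESeq and build mm9, and the counting tool and annotation are not stated. The authors' deposited comparison holds mean normalised counts (a score with no unit, groups named A and B), a fold ratio, its log2 and p-values from DESeq, per the file headers. No per-sample column was left unused.

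The 83 genes and all gene lists were chosen with earlier results of these data known. Counts were scaled by TMM, filtered by filterByExpr and tested with edgeR 4.0.16 (quasi-likelihood, diet as the only term, Benjamini-Hochberg adjusted p under 0.05, R 4.3.3) on all genes. DESeq2 1.42.0, limma 3.58.1, other scalings and filters, GC and length offsets (splines, 5 degrees of freedom) and single-library exclusions were alternatives. Genes were named when called, when among the 6 largest changes either way or the 5 most abundant, or as paralog pairs; others were named after their values were seen, and a few genes are not reported here. No label ties libraries to separate cages or batches, and p-values measure only the spread between these mice. Sequences came from RefSeq GRCm38.p6 and GENCODE M21 and were not joined to mm9 coordinates.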

Additional observations from a re-analysis of the deposited data

Results flagged for a closer look

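In 11 of 62 groups of 7 libraries examined, 1 library lay far from the other 6 of its diet. Chance alone flags about 1 in 20 independent groups, a rate that does not apply here, since the genes share libraries and several were named for large decreases. LFLS 1 accounted for 7 of them, all high. Its share of counts on the ribosomal protein genes was 0.286%, with the next library at 0.221%, and its share on their pseudogenes was 0.0419%. In the same library Rpl8 had 307 CPM, Rplp1 246 CPM, Rpl37 50.2 CPM, Rps16 39.1 CPM and Rpl28 13.1 CPM. LFLS 6 was high for Rpl32 at 10.7 CPM and for Rps12 at 12.2 CPM. LFLS 7 was high for Rps27 at 12.3 CPM, and HFHS 1 was low for Rpl7 at 2.70 CPM.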

How the results depend on the processing

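The median log2 change of the ribosomal protein genes stayed below 0 in every setting tried, from -0.39 with title number 2 alone to -0.14 with number 1 alone or limma voom, and from -0.30 to -0.21 with 1 library left out. The count of genes called lower was less stable. It was 5 in the reported fit, 5 or 6 with RLE factors, a filter of 1 CPM, 1 subtracted from every count or GC and length offsets, 2 with library totals, and 0 with no filter, where genes at the lowest count throughout were dropped and a loess trend was used. It was 15 with DESeq2 and 13 with voom, which called 2 higher. Within title number 1 it was 0, with 1 higher, and within number 2 it was 2. With 1 library left out it ran from 0 to 11, with 0 called higher. The cause of these moves was not tested. Over all genes 484 were called, against 172 with no filter, 1484 in number 1, 269 in number 2, 1258 with DESeq2, 3274 with voom and 133 to 853 with 1 library left out. The difference in summed share ran from -0.0403 to -0.0261 percentage points with 1 library left out.

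With the title number as a replicate block, 15 ribosomal protein genes and 1540 of all genes were called, and with GC and length offsets added to the block, a fit chosen after seeing the data, 13 and 1200. With title pairs as the block 2 were called lower and 598 of all genes, and Rpl10a, Rpl13a and Rps9 lost their calls. Of 7 title pairs 4 had a correlation of deviations over 0.1 (range -0.07 to 0.41), and 6 libraries matched their own pair best. The titles were therefore not taken to pair mice. For 13 libraries the best match in the other diet had their own title number. Between diets the mean correlation was 0.13 within a title number and -0.13 across numbers, so libraries grouped by title number. The reported fit has no term for it. Under the pair block Rpl22l1 (0.051), Rpl39 (0.016) and Ctrb1 (0.22) changed side.

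Other sign changes of named genes, as log2 change, were as follows. In number 1 they were Rpl10 0.20, Rpl22l1 0.51, Rpl39 0.38, Rpl7l1 0.0064 and Cd2 -0.32. In number 2 they were Rpl15 -0.15, Rpl22 -0.058, Rpl23a -0.14, Rpl3l -0.18, Rps19 -0.0082, Rps27 -0.32, Rps6 -0.32, Rps6ka3 -0.12, Cd3e 0.059, Clec4f 0.16, Csf1r 0.41, Cd68 0.39, Hba-a1 0.42, Hbb-b2 0.33, Hba-a2 0.36, Cela2a 1.57, Cela1 1.13 and Ctrb1 4.62. With GC offsets they were Rpl15 -0.012 and Rps6ka3 -0.00083, with the block added Rpl15 -0.011 and Rps6ka3 -0.0055, with DESeq2 Ctrb1 0.96, and with voom Rpl22l1 0.0082 and Rpl39 0.025. With 1 library left out, the genes that changed side ran from -0.015 (without LFLS 1) to 0.23 for Rps6, -0.40 (without HFHS 6) to 0.87 (without LFLS 7) for Rps27, -0.27 to 0.015 (without LFLS 6) for Rpl39 and -0.052 to 0.27 for Cd2. Without LFLS 2 Cela2a was 0.44, Cela1 0.41 and Ctrb1 0.95, and their lowest values were -1.59, -1.25 and -2.62. Rps27 had no unique coding stretch, and Cd2 averaged 0.467 CPM on HFHS and 0.431 CPM on LFLS. Cela2a spread from 7.45 to 244 CPM on LFLS, where LFLS 2 had the highest exocrine pancreas share, at 0.156% of counts. The part of these values in the sign changes was not tested.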
